A study of Mus musculus with 2 samples.

Results

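Lymphotoxin and BAFF signalling was followed through 6 genes, taken by symbol from the 32285 genes listed for both libraries: the ligands Lta, Ltb, Tnfsf14 and Tnfsf13b and the receptors Ltbr and Tnfrsf13c. All 6 had at least 50 unique molecular identifiers (UMIs, counts of captured RNA molecules) over both libraries. The AIE COF library came from subcutaneous tumours of mice given phototherapy mediated by AIE COF, a preparation of covalent organic framework, and the PBS library from tumours of mice given PBS in its place. Both were labelled as tumours of 4T1, a mouse mammary carcinoma line, and on day 7 after phototherapy they were taken out, dissociated and prepared with the 3′ kit of MobiCube. The strain is given as C57BL/c in the labels. The sources used here do not say how many animals each suspension came from. Since each group has 1 library, nothing was tested, and every interval below is a 95% interval that covers counting error only.

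Lymphotoxin alpha can be secreted, or it can be held at the cell surface by lymphotoxin beta, the product of Ltb. The surface complex binds the lymphotoxin beta receptor (Ltbr) on stromal, epithelial and myeloid cells, which signals through the alternative NF-kB pathway and induces chemokines and adhesion molecules that place lymphocytes in lymph nodes and in tertiary lymphoid structures, the subject named in the title of the series. LIGHT, the product of Tnfsf14, binds the same receptor and HVEM (Tnfrsf14). BAFF, the product of Tnfsf13b, is made mainly by myeloid and stromal cells and keeps mature B cells alive through the BAFF receptor (Tnfrsf13c).

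The genes lie on 4 mouse chromosomes (GENCODE M21, build GRCm38). Ltb lies on the plus strand at chr17:35194439-35196320 and Lta on the minus strand at chr17:35203165-35205351, and their starts are 10912 bases apart. Tnfsf14 lies at chr17:57189492-57194177, Tnfsf13b at chr8:10006467-10039072, Ltbr at chr6:125306571-125313885 and Tnfrsf13c at chr15:82221743-82224369. None of the 6 overlaps another annotated gene. The sequences just before the starts of 4 of them are shown because these are the genes whose cells were most distinct: the neighbouring lymphocyte ligands Lta and Ltb, the macrophage ligand Tnfsf13b and the B cell receptor gene Tnfrsf13c. They come from RefSeq (GRCm38.p6), are written 5′ to 3′ in the direction of the gene and stop before the first annotated start in either annotation. They cover chr17:35205352-35205601 (minus strand) for Lta, chr17:35194257-35194438 (plus strand) for Ltb, chr8:10006217-10006466 (plus strand) for Tnfsf13b and chr15:82224381-82224630 (minus strand) for Tnfrsf13c. Capitals mark matches to the general NF-kB motif GGGNNNNNCC on either strand.
Lta: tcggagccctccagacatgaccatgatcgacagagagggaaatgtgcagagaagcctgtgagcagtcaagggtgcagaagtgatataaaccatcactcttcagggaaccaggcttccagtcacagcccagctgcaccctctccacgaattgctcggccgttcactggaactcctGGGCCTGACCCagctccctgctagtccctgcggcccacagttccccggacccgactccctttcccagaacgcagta
Ltb: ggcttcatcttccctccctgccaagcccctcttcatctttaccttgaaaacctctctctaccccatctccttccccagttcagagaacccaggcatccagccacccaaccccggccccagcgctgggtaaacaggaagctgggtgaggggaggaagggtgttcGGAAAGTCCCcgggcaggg
Tnfsf13b: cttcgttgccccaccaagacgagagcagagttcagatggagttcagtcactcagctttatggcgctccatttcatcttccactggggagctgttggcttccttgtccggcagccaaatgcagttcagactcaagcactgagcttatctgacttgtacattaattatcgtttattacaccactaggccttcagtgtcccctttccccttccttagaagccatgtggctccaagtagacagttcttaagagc
Tnfrsf13c: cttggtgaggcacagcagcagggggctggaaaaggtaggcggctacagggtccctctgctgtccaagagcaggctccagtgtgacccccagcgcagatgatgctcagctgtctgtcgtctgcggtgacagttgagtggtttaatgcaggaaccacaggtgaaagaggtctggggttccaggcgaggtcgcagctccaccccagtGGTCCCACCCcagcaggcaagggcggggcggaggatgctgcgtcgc

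The general motif was found in 45.8% of the 32851 RefSeq windows that hold the 250 bases before a start, so a match is common. In Lta the capitals hold a match on each strand, overlapping in all but their outermost bases, from 76 to 66 bases before the start. In Ltb the match lies 87 to 78 bases before the RefSeq start and reads GGGACTTTCC on the opposite strand. That exact string, looked up on both strands after the sequence had been seen, was present in 46 of the 32851 windows (0.140%) and in none of the other printed stretches. Tnfrsf13c has 1 general match 46 to 37 bases before its start, and the stretch of Tnfsf13b has none. These are descriptions of letters, and nothing on binding of a factor was measured.

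After cell filtering and doublet removal the AIE COF library held 8619 cells with a median of 3884 UMIs, and the PBS library 7864 cells with a median of 6341 UMIs. Cells were grouped by clustering in which the 6 genes were left out of the variable genes, and clusters were named from marker lists that hold none of the 6. B-like cells numbered 1199 in the AIE COF library and 365 in the PBS library, a share 3.0 times as high (2.66 to 3.38). T-like cells numbered 1555 in the AIE COF library and 696 in the PBS library, a share 2.04 times as high (1.86 to 2.23). Macrophage-like cells numbered 930 and monocyte-like cells 700 in the AIE COF library, against 728 and 352 in the PBS library. The largest class, called Ptprc-low because the gene of the leukocyte antigen CD45 was low in it, held 2493 AIE COF and 2802 PBS cells. These had 75.7% and 78.8% of all UMIs. A shallow Ptprc-low class held 816 AIE COF and 1726 PBS cells, a share 0.431 times as high (0.396 to 0.469). Unnamed clusters held 580 AIE COF and 942 PBS cells, a share 0.562 times as high (0.506 to 0.624). Shares are of all cells kept, so lower shares of these classes go with higher shares of others. The Ptprc-low class had epithelial markers near 0, with Epcam at 0.476 CPM (counts per 1000000 UMIs) in the AIE COF library and 0.510 CPM in the PBS library. The labelled 4T1 identity was thus not visible in these genes, and the class is called by its rule.

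In the whole libraries all 4 ligands and Tnfrsf13c had higher levels in the AIE COF library, and Ltbr did not. Lta had 67 UMIs (0.653 CPM) in the AIE COF library and 50 UMIs (0.394 CPM) in the PBS library, a ratio of 1.65 (1.13 to 2.44). Ltb had 982 UMIs (9.57 CPM) in the AIE COF library and 832 UMIs (6.56 CPM) in the PBS library, a ratio of 1.46 (1.33 to 1.60). Tnfsf14 had 72 UMIs (0.701 CPM) in the AIE COF library and 46 UMIs (0.363 CPM) in the PBS library, a ratio of 1.93 (1.32 to 2.86). Lta and Tnfsf14 passed 1.5-fold on few molecules each. Ltb, at a log2 ratio of 0.54, lay just under it, and passed it with cells weighted equally (0.66), when thinned to 1000 UMIs (0.60) and without doublet removal (0.59). Tnfsf13b had 979 UMIs (9.54 CPM) in the AIE COF library and 893 UMIs (7.05 CPM) in the PBS library, a ratio of 1.35 (1.24 to 1.48). Ltbr had 1021 UMIs (9.95 CPM) in the AIE COF library and 1319 UMIs (10.4 CPM) in the PBS library, a ratio of 0.956 (0.880 to 1.04). Tnfrsf13c had 202 UMIs (1.97 CPM) in the AIE COF library and 103 UMIs (0.813 CPM) in the PBS library, a ratio of 2.42 (1.90 to 3.10), the highest of the 6. In all, 3 of the 6 genes were at least 1.5-fold higher and 0 were lower, where 8.5% of the 15629 genes with at least 50 UMIs were that much higher and 4.89% lower. The median log2 ratio was 0.64 over the 6 genes and 0.01 over all genes measured. When cells were weighted equally the log2 ratio was -0.030 for Tnfsf13b and -0.45 for Ltbr, and when cells were thinned to 1000 UMIs it was -0.16 for Tnfsf13b, -0.36 for Ltbr and 0.043 for Tnfsf14. In a whole library, more cells of a type and more RNA of a gene per cell cannot be told apart, so each gene was next placed in its cells.

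**Figure D1:**
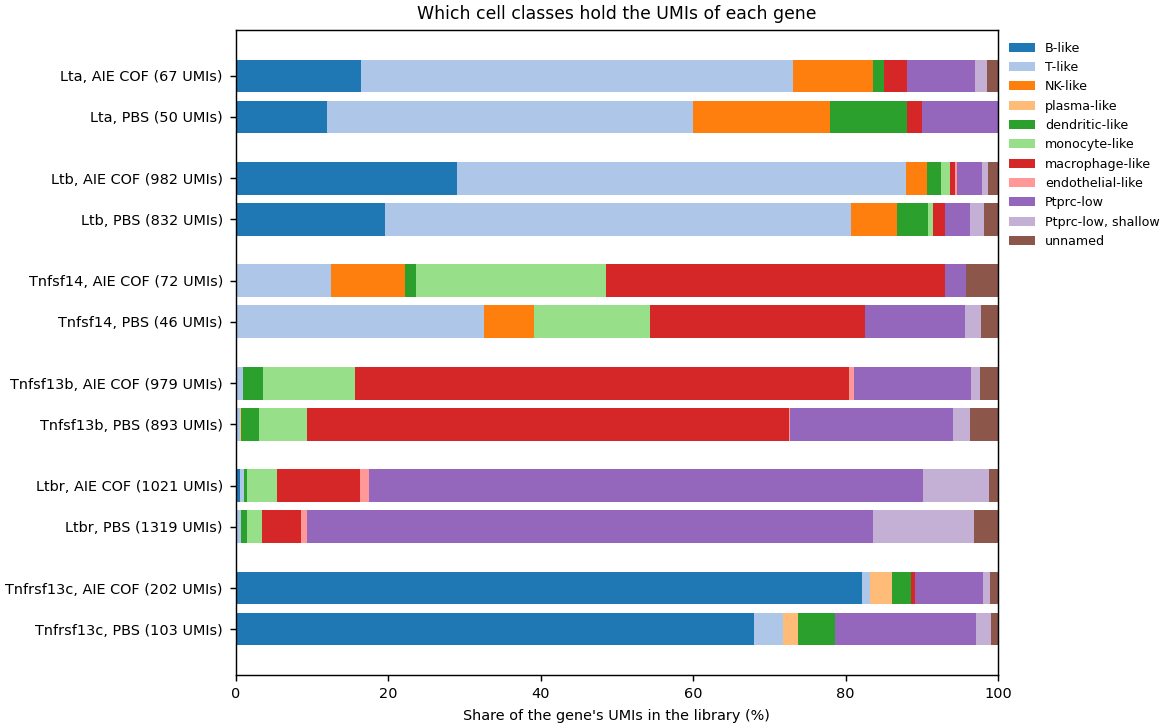
Share of each gene's UMIs held by each cell class in percent, with the AIE COF library above the PBS library for each gene and the UMI total in brackets. B-like cells held 82.2% of Tnfrsf13c UMIs in the AIE COF library and 68.0% in the PBS library, and Ptprc-low cells held 72.7% and 74.2% of Ltbr UMIs, beside 75.7% and 78.8% of all UMIs.

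The members sat in different cells. T-like, B-like and NK-like cells held most lymphotoxin transcripts: T-like cells alone had 59.0% of Ltb UMIs in the AIE COF library and 61.2% in the PBS library, and 56.7% and 48.0% of Lta UMIs. Macrophage-like cells held 64.9% of Tnfsf13b UMIs in the AIE COF library and 63.2% in the PBS library. Tnfsf14 was spread over macrophage-like, monocyte-like, T-like and NK-like cells. Ptprc-low cells held 72.7% of Ltbr UMIs in the AIE COF library and 74.2% in the PBS library, no more than their 75.7% and 78.8% of all UMIs, and the level of Ltbr was as high in macrophage-like and monocyte-like cells. Tnfrsf13c was carried mostly by B-like cells. Lymphotoxin thus lay mainly in lymphocytes and its receptor outside them, and BAFF mainly in macrophage-like cells and its receptor in B-like cells. LIGHT and Ltbr shared macrophage-like and monocyte-like cells. For each B-like cell there were 0.776 macrophage-like cells in the AIE COF library and 1.99 in the PBS library.

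**Figure D2:**
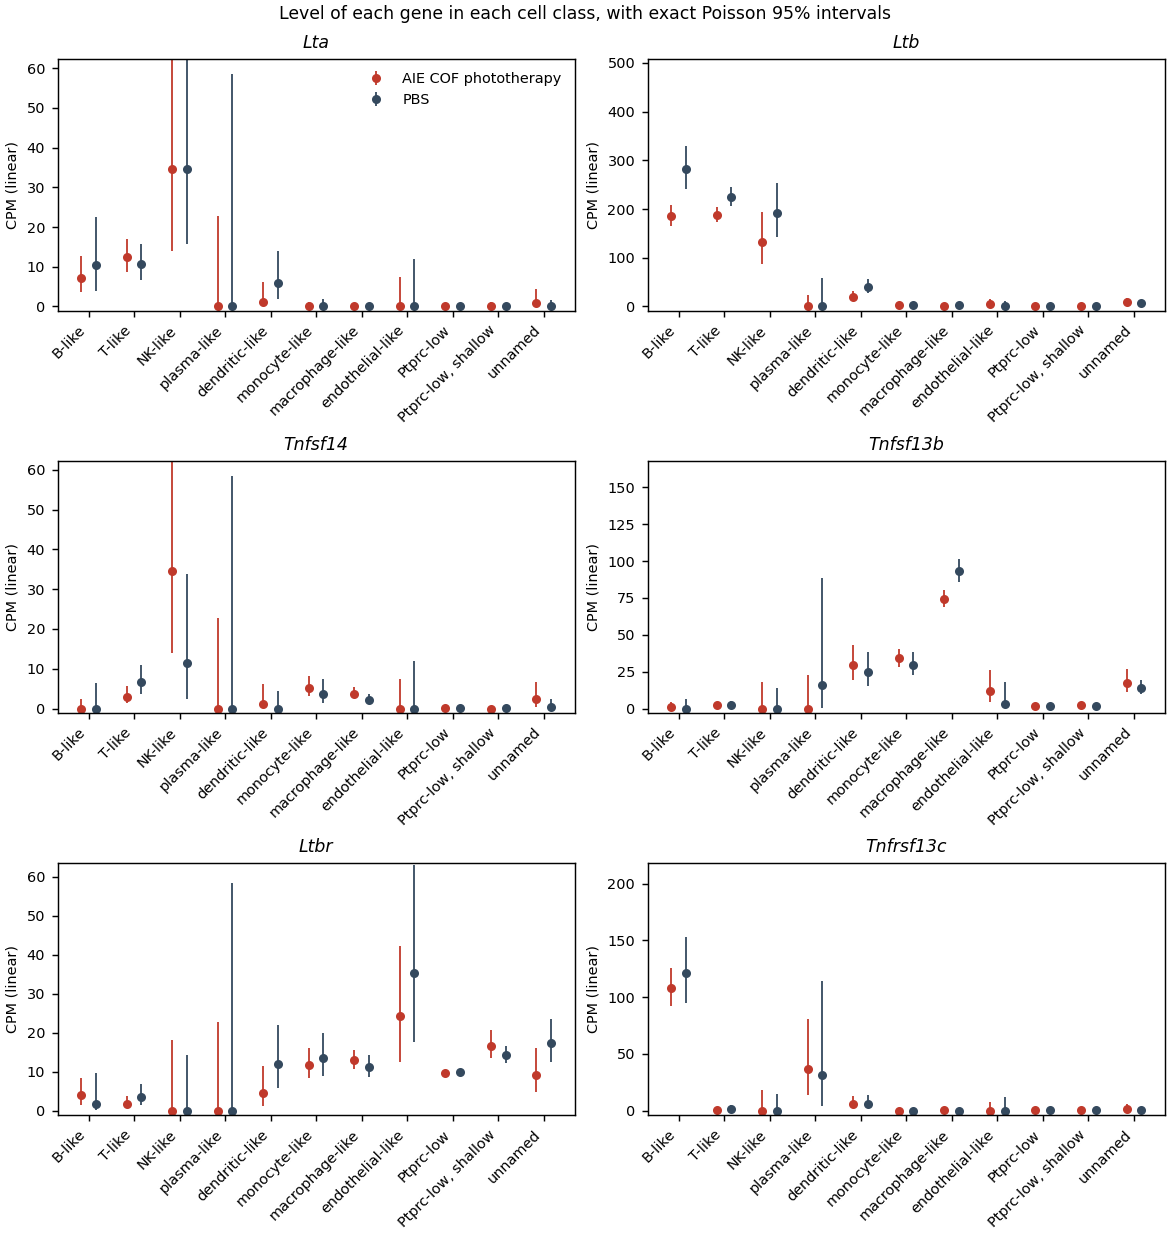
Level of each gene in CPM in each cell class on a linear axis from 0, AIE COF left of PBS, with exact Poisson intervals, the longest of which run past the axis; NK-like, plasma-like and endothelial-like cells number under 100 in a library and are shown without comparison. Ltb reached 185 CPM in B-like cells of the AIE COF library and 282 CPM in those of the PBS library, and lay at 0.412 and 0.270 CPM in Ptprc-low cells.

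Ltb, which anchors lymphotoxin at the cell surface, had its highest level in regulatory-T-like cells, a sub-cluster of under 100 cells in each library. They had 468 CPM (63 UMIs in 77 cells) in the AIE COF library and 538 CPM (87 UMIs in 72 cells) in the PBS library. T-like cells as a whole had 188 CPM (579 UMIs) in the AIE COF library and 224 CPM (509 UMIs) in the PBS library, a ratio of 0.840 (0.744 to 0.948). The make-up of that class differed, with 946 naive-like and 154 CD8-effector-like cells in the AIE COF library, against 231 and 263 in the PBS library. Naive-like cells had 181 CPM in the AIE COF library and 238 CPM in the PBS library, a ratio of 0.758 (0.612 to 0.945), and CD8-effector-like cells 159 and 174 CPM, a ratio of 0.917 (0.722 to 1.16). The naive-like class holds a sub-cluster led by Tnfsf8, Tbc1d4 and Slamf6, without which its Ltb log2 ratio was -0.30. B-like cells had 185 CPM (285 UMIs) in the AIE COF library and 282 CPM (163 UMIs) in the PBS library, a ratio of 0.657 (0.540 to 0.801). Within both lymphocyte classes the direction was thus the opposite of that in the whole library. In B-like cells 1 of the 2 members measured, Ltb, was at least 1.5-fold lower, where 4.33% of the 5101 genes measured there were. That call was narrow, at a log2 ratio of -0.61, and was lost with separate clustering of the libraries (-0.40), without doublet removal (-0.51), with TMM factors (-0.55) and with cells weighted equally (-0.55). Dendritic-like cells had 20.3 CPM (18 UMIs) in the AIE COF library and 40.6 CPM (34 UMIs) in the PBS library, a ratio of 0.50 (0.266 to 0.910), where 8.07% of genes were at least 1.5-fold lower. Thinned to 1000 UMIs it was no longer past 1.5-fold (log2 ratio -0.51), and 3 of 127 AIE COF and 4 of 119 PBS cells had an Ltb UMI. In these cells the 8 markers of mature dendritic cells summed to 1006 CPM in the AIE COF library and 527 CPM in the PBS library, and their part in the ratio was not tested. NK-like cells, under 100 in each library, had 27 UMIs in the AIE COF library and 50 UMIs in the PBS library. In Ptprc-low cells Ltb had only 32 UMIs in the AIE COF library and 27 in the PBS library, a ratio of 1.52 (0.885 to 2.64) that makes it the 1 member of 3 measured there past 1.5-fold, where 4.35% of genes were that much higher. That ratio turned below 1 when cells were weighted equally or thinned.

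The share of cells with an Ltb molecule gave the same order in B-like cells. After each cell was thinned to 1000 UMIs, and shallower cells were left out, 15.3% of 779 B-like cells of the AIE COF library had an Ltb UMI (12.8 to 18.0) and 24.7% of 304 B-like cells of the PBS library (19.9 to 29.9), with 420 and 61 cells left out. Before thinning the shares were 19.5% of 1199 and 34.5% of 365 cells. Among T-like cells the thinned shares were 16.8% of 1328 in the AIE COF library and 19.3% of 643 in the PBS library, with intervals that overlap. Ptprc-low cells, which should lack the gene, had an Ltb UMI in 0.0403% of 2483 cells of the AIE COF library and 0.0718% of 2787 cells of the PBS library at the same thinning. The lymphocyte shares are far above that background. Median depth before thinning was 1155 UMIs in AIE COF B-like cells and 1483 in PBS B-like cells, against 29760 and 34383 UMIs in Ptprc-low cells.

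Within B-like cells the B, T and macrophage markers were at like levels in both libraries, and several other lists were not. The 9 B cell markers summed to 7817 CPM in the AIE COF library and 7908 CPM in the PBS library, the 11 T cell markers to 76.7 and 83.1 CPM, and the 10 macrophage markers to 325 and 320 CPM, with no marker of these lists at 0. The 8 monocyte markers summed to 1316 CPM in the AIE COF library and 926 CPM in the PBS library. Lower in the AIE COF library were the 8 fibroblast markers (183 CPM in the AIE COF library and 280 CPM in the PBS library), the 9 CD8-effector markers (27.3 and 41.5 CPM), the 7 regulatory-T markers (18.2 and 34.6 CPM) and the 9 NK markers (11.7 and 24.2 CPM), of which 6 were at 0 in the AIE COF library and 5 in the PBS library. The part of these lists in the Ltb ratio was not tested. When B-like cells were clustered again, Ltb was lower in the AIE COF library in 3 of 3 sub-clusters. The lowest ratio was in the sub-cluster led by Gadd45b and Nfkbia, both early response genes, with 201 CPM (110 UMIs) in the AIE COF library and 355 CPM (88 UMIs) in the PBS library, a ratio of 0.568 (0.425 to 0.760). The most Ltb UMIs in 1 cell of that sub-cluster were 4 in the AIE COF library and 10 in the PBS library, and the interval does not cover such clumping. Intervals in the other B sub-clusters reached 1. Among the 9 sub-clusters of T-like and NK-like cells Ltb was lower in 7, with intervals below 1 in 2. It was higher, with an interval above 1, in the cycling CD8-effector-like sub-cluster led by histone genes, at 151 CPM (59 UMIs) in the AIE COF library and 99.1 CPM (60 UMIs) in the PBS library.

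**Figure D3:**
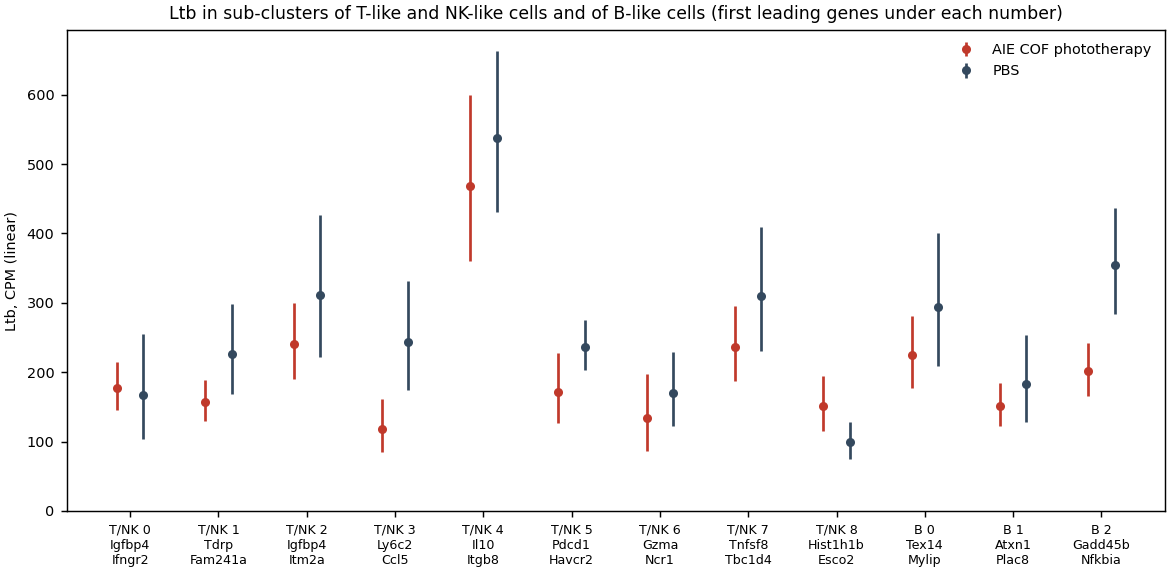
Ltb in CPM on a linear axis from 0, in each sub-cluster of T-like and NK-like cells (T/NK 0 to 8) and of B-like cells (B 0 to 2), AIE COF left of PBS, with exact Poisson intervals and leading genes under each number. The AIE COF point is lower in 7 of 9 T-like and NK-like sub-clusters and in 3 of 3 B-like sub-clusters, and sub-cluster T/NK 4 (regulatory-T-like) is highest in both libraries.

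Lta, the partner of Ltb, was far sparser. T-like cells had 38 UMIs (12.4 CPM) in the AIE COF library and 24 UMIs (10.6 CPM) in the PBS library, a ratio of 1.17 (0.683 to 2.04). CD8-effector-like cells, defined by genes of cytotoxic T cells, had 17 UMIs (25.6 CPM) in 154 cells of the AIE COF library and 15 UMIs (11.3 CPM) in 263 cells of the PBS library, a ratio of 2.26 (1.06 to 4.85). At 1000 UMIs per cell, 2 of 148 AIE COF and 3 of 255 PBS cells of this class had an Lta UMI. So few cells cannot show a difference. Unthinned, 12 of 154 and 14 of 263 cells had one. The cycling sub-cluster led by histone genes held 68 of the AIE COF and 73 of the PBS cells. The other sub-cluster held 86 and 190. In each sub-cluster the Lta ratio was above 1, with an interval that includes 1. The cells called naive-like had 10 UMIs (6.13 CPM) in 946 cells of the AIE COF library and 13 UMIs (25.6 CPM) in 231 cells of the PBS library, a ratio of 0.239 (0.0939 to 0.591). That value rests on the sub-cluster led by Tnfsf8, a TNF family ligand of activated T cells, which had 3 UMIs in 160 cells of the AIE COF library and 12 UMIs in 62 cells of the PBS library. It met 6 of the 8 naive markers, and none is among its 10 leading genes. The latter also holds for the naive-like sub-cluster led by Tdrp and Fam241a, which met all 8. Under separate clustering of the libraries, a sub-cluster led by Tbc1d4 and Tnfsf8 was named follicular-helper-like. The name naive-like is therefore uncertain for the sub-cluster led by Tnfsf8. Without that sub-cluster the naive-like log2 ratio was 0.90 on 7 AIE COF UMIs and 1 PBS UMI, so its direction cannot be stated. NK-like cells had 7 UMIs in the AIE COF library and 9 UMIs in the PBS library. Thinned to 1000 UMIs, 13 of 1328 AIE COF T-like cells and 4 of 643 PBS T-like cells had an Lta UMI, against 0 of 2483 (which allows up to 0.121%) and 1 of 2787 Ptprc-low cells. Before thinning the order was the other way, with 2.06% of 1555 AIE COF T-like cells and 2.87% of 696 PBS T-like cells.

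Cells with molecules of both lymphotoxin chains, as the surface complex requires, were few. Of the cells with an Lta UMI, 16 of 56 also had an Ltb UMI in the AIE COF library and 20 of 36 in the PBS library. In T-like cells the counts were 10 of 32 in the AIE COF library and 14 of 20 in the PBS library, where 27.3% and 42.4% of all T-like cells had an Ltb UMI at all. In CD8-effector-like cells they were 7 of 12 and 9 of 14. These counts were not thinned. The median depth of T-like cells was 1632 UMIs in the AIE COF library and 2484 UMIs in the PBS library, and its part in the counts was not tested.

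Tnfsf14, the gene of LIGHT, gave too few molecules for a level by class. Macrophage-like cells had 32 UMIs in the AIE COF library and 13 UMIs in the PBS library, a ratio of 1.75 (0.891 to 3.62). Monocyte-like cells had 18 UMIs in the AIE COF library and 7 in the PBS library. T-like cells had 9 UMIs in the AIE COF library and 15 UMIs in the PBS library, a ratio of 0.443 (0.171 to 1.08). Myeloid cells thus held more of it in the AIE COF library and T-like cells less, and each of these class intervals includes 1. After thinning to 1000 UMIs, 3 of 919 macrophage-like cells of the AIE COF library and 4 of 723 of the PBS library had a UMI, against 0 of 2483 and 1 of 2787 Ptprc-low cells, so a difference per cell was not detectable at this depth. The NK-like class, too small for a compared level, had 7 UMIs in 95 AIE COF cells and 3 UMIs in 84 PBS cells. At the same thinning 4 of 79 and 1 of 78 of these cells had a UMI, higher shares than in macrophage-like cells. UMI totals by class therefore do not rank the classes by level. No B-like cell had a Tnfsf14 UMI in either library.

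Tnfsf13b, the gene of BAFF, was highest in macrophage-like cells. They had 74.4 CPM (635 UMIs) in the AIE COF library and 93.3 CPM (564 UMIs) in the PBS library, a ratio of 0.798 (0.711 to 0.896), under 1.5-fold as measured and past it when cells were thinned to 1000 UMIs (log2 ratio -0.65). Of the 2 members measured in these cells 0 passed 1.5-fold, where 6.27% of genes were that much lower. The 10 macrophage markers summed to 14046 CPM in these AIE COF cells and 17547 CPM in these PBS cells, and whether the Tnfsf13b ratio goes with that was not tested. Monocyte-like cells had 33.9 CPM (118 UMIs) in the AIE COF library and 29.8 CPM (57 UMIs) in the PBS library, a ratio of 1.14 (0.825 to 1.59). Dendritic-like cells had 29.3 CPM (26 UMIs) in the AIE COF library and 25.1 CPM (21 UMIs) in the PBS library. The order of levels was the same in both libraries, macrophage-like above monocyte-like and dendritic-like cells, whose intervals overlap each other. Ptprc-low cells had 1.93 CPM (150 UMIs) in the AIE COF library and 1.91 CPM (191 UMIs) in the PBS library. Thinned to 1000 UMIs, 5.44% of 919 macrophage-like cells of the AIE COF library and 7.61% of 723 of the PBS library had a UMI, against 0.128% of 779 and 0 of 304 B-like cells (the 0 allows up to 0.987%).

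Ltbr, the receptor for lymphotoxin and LIGHT, differed little between the libraries wherever it was well measured. Ptprc-low cells had 9.55 CPM (742 UMIs) in the AIE COF library and 9.80 CPM (979 UMIs) in the PBS library, a ratio of 0.975 (0.885 to 1.07). Macrophage-like cells had 13.0 CPM (111 UMIs) in the AIE COF library and 11.2 CPM (68 UMIs) in the PBS library, a ratio of 1.16 (0.848 to 1.59). Monocyte-like cells had 11.8 CPM (41 UMIs) in the AIE COF library and 13.6 CPM (26 UMIs) in the PBS library. In these 3 classes the levels thus lay between 9.55 and 13.6 CPM in both libraries. Shallow Ptprc-low cells lay above that range, at 16.7 CPM (88 UMIs) in the AIE COF library and 14.4 CPM (175 UMIs) in the PBS library. Their ratio was 1.16 (0.889 to 1.51). Endothelial-like cells, 76 in the AIE COF library and 36 in the PBS library, had 12 UMIs and 11 UMIs. That is 24.2 CPM (12.5 to 42.2) and 35.3 CPM (17.6 to 63.2), the highest points of any class, on too few cells to compare. B-like cells had 6 UMIs in the AIE COF library and 1 in the PBS library, and T-like cells 5 and 8. Thinned to 1000 UMIs, 2.07% of macrophage-like cells in the AIE COF library and 2.21% in the PBS library had a UMI, and 1.35% and 0.867% of monocyte-like cells. The thinned shares were 0.926% and 1.0% in Ptprc-low cells, 2.23% and 1.62% in the shallow Ptprc-low cells, and 0.385% and 0.329% in B-like cells. In macrophage-like cells the order of shares was the other way when thinned to 2000 UMIs (2.14% in the AIE COF library and 1.43% in the PBS library). Unthinned it was also the other way (10.6% and 7.83%). In the unnamed clusters Ltbr had 12 UMIs in the AIE COF library and 41 UMIs in the PBS library, a ratio of 0.531 (0.254 to 1.03), the 1 member of 2 measured there at least 1.5-fold lower, where 4.92% of genes were.

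Tnfrsf13c, the gene of the BAFF receptor, had the highest ratio of the 6 in the whole library and a ratio below 1 inside B-like cells. B-like cells had 108 CPM (166 UMIs) in the AIE COF library and 121 CPM (70 UMIs) in the PBS library, a ratio of 0.891 (0.670 to 1.20). Thinned to 1000 UMIs, 10.3% of 779 B-like cells of the AIE COF library and 9.54% of 304 of the PBS library had a UMI, against 0 of 2483 and 0 of 2787 Ptprc-low cells (allowing up to 0.121% and 0.108%). Before thinning the shares were 12.0% of 1199 AIE COF cells and 15.6% of 365 PBS cells. Ptprc-low cells were not free of the gene before thinning, with 18 UMIs in 17 AIE COF cells and 19 UMIs in 14 PBS cells. Their median depths of 29760 and 34383 UMIs mean that thinning removes most of their molecules, so the 0s hold only at 1000 UMIs. The B-like level was thus not distinguishable between the libraries within counting error. Plasma-like cells, 35 in the AIE COF library and 10 in the PBS library, had 6 UMIs and 2 UMIs.

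The share of cells in each class was then held fixed. Levels of the AIE COF classes were weighted by the cell shares and UMIs per cell of the PBS classes. The log2 ratio of Tnfrsf13c went to 0.00 (a ratio of 1.0), against 1.28 as measured. That of Ltb turned to -0.29, against 0.54 as measured, and that of Tnfsf13b to -0.14, against 0.44. Lta was at 0.15, against 0.73 as measured, Tnfsf14 at 0.31, against 0.95, and Ltbr at -0.02, against -0.06. At the PBS make-up none of the 6 passed 1.5-fold in either direction.

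**Figure D4:**
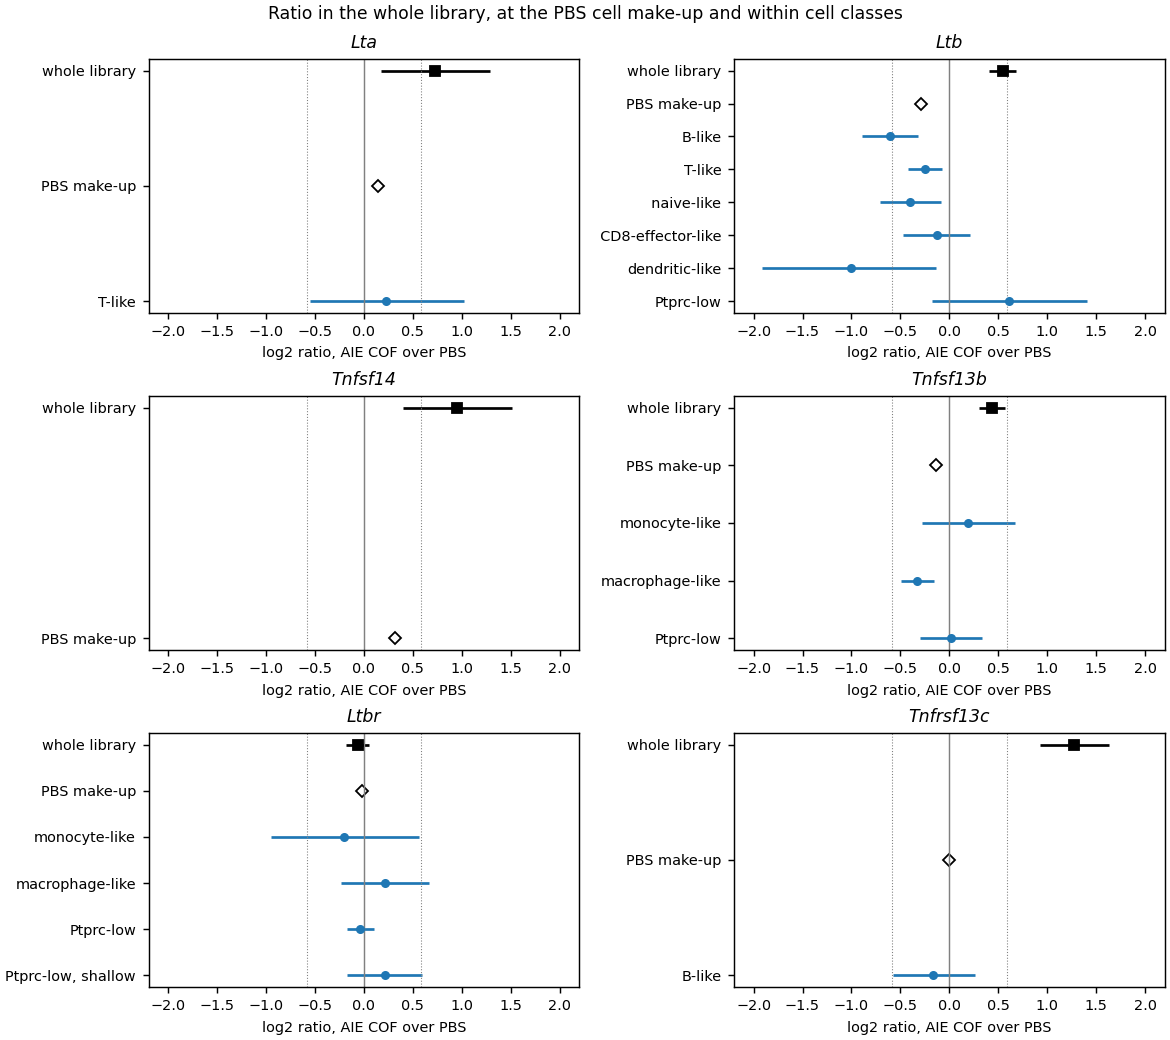
Log2 ratio of AIE COF over PBS for each gene in the whole library (square), at the PBS make-up (open diamond, no interval) and within classes with at least 50 UMIs over both libraries (circles), with 95% counting intervals and dotted lines at 1.5-fold. Tnfrsf13c lies at 1.28 in the whole library and at -0.17 within B-like cells, and Ltb at 0.54 in the whole library and at -0.61 within B-like cells.

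Other genes of the same pathways were counted from 4 lists, which were chosen with earlier results of these data known. Of 9 partner ligands and receptors of the TNF family, 7 were measured, 2 were at least 1.5-fold higher in the AIE COF library and 0 lower, with a median log2 ratio of 0.36, beside 8.5% of all measured genes higher and 4.89% lower. Btla, an inhibitory receptor that binds HVEM, had 11.3 CPM in the AIE COF library and 4.50 CPM in the PBS library (log2 ratio 1.33). Tnfrsf13b, which encodes TACI, another BAFF receptor, had 6.95 CPM in the AIE COF library and 3.83 CPM in the PBS library (0.86). Tnf had 12.7 CPM in the AIE COF library and 9.59 CPM in the PBS library (0.41), and its receptor gene Tnfrsf1b 33.5 and 26.0 CPM (0.36). Inside B-like cells Btla had 354 CPM in the AIE COF library and 365 CPM in the PBS library, a ratio of 0.968 (0.825 to 1.14), and Tnfrsf13b 111 and 109 CPM, a ratio of 1.02 (0.760 to 1.38). In T-like cells Btla was higher, at 102 CPM in the AIE COF library and 62.1 CPM in the PBS library, a ratio of 1.63 (1.33 to 2.01), where 7.9% of genes were at least 1.5-fold higher. In that class the 8 naive markers summed to 4501 CPM in the AIE COF library and 1987 CPM in the PBS library, the 9 CD8-effector markers to 2836 and 5644 CPM, and the 9 B cell markers to 51.1 and 19.4 CPM. Within naive-like cells Btla had 140 CPM in the AIE COF library and 162 CPM in the PBS library, a ratio of 0.869 (0.672 to 1.13), and within CD8-effector-like cells 39.1 and 28.0 CPM, a ratio of 1.40 (0.813 to 2.37). Tnfsf13, the gene of the related ligand APRIL, had 0 UMIs in both libraries and lies inside the annotated Tnfsf13os on the other strand.

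Of 10 NF-kB signalling genes below the receptors, all measured, 1 was at least 1.5-fold higher and 0 lower, with a median of 0.09, a share near the 8.5% of all genes that were higher (4.89% were lower). That gene was Nfkb1, which encodes the p105 precursor, at 235 CPM in the AIE COF library and 152 CPM in the PBS library (0.63). Nfkb2, the precursor used by the alternative pathway below Ltbr and the BAFF receptor, had 21.2 CPM in the AIE COF library and 25.6 CPM in the PBS library (-0.27), and its end is overlapped by Psd on the other strand. Birc3, a ubiquitin ligase of the pathway, had 57.5 CPM in the AIE COF library and 46.7 CPM in the PBS library (0.30), and Traf3, its partner in holding the pathway off, 81.0 and 67.1 CPM (0.27). Nfkb1 was also higher by less than 1.5-fold within T-like cells (651 CPM in the AIE COF library and 470 CPM in the PBS library) and Ptprc-low cells (186 and 128 CPM), and was level in B-like cells (535 and 505 CPM).

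Of 9 genes induced through the lymphotoxin beta receptor, 5 were measured, 3 were at least 1.5-fold higher and 0 lower, with a median of 0.66, where 8.5% of all genes were higher and 4.89% lower. Cxcl13, a chemokine for B cells, had 39 UMIs in the AIE COF library and 22 UMIs in the PBS library (1.13). Of these, macrophage-like cells held 12 in the AIE COF library and 1 in the PBS library, and Ptprc-low cells 14 and 19. Cxcl12, a chemokine of stromal and endothelial cells, had 167 UMIs in the AIE COF library and 112 UMIs in the PBS library (0.88). Tnfsf11, the gene of RANKL, had 133 UMIs in the AIE COF library and 104 UMIs in the PBS library (0.66), of which T-like cells held 124 and 95, at level CPM (40.3 and 41.9). T-like cells had only 5 Ltbr UMIs in the AIE COF library and 8 in the PBS library. Whether Ltbr induced any gene of this list here was not tested. Icam1, an adhesion molecule, had 7.48 CPM in the AIE COF library and 5.03 CPM in the PBS library (0.57), and its end is overlapped by Gm47079. Ccl19 and Ccl21a, chemokines of the T cell zone of lymph nodes, had 0 UMIs in both libraries, and both lie inside the annotated 4930578G10Rik on the other strand. The adhesion molecules of high endothelial venules, Madcam1 and Glycam1, had 10 and 6 UMIs in the AIE COF library and 7 and 18 UMIs in the PBS library.

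Of 8 B cell survival and maturation genes downstream of BAFF, 7 were measured, 4 were at least 1.5-fold higher and 0 lower, with a median of 0.74, against 8.5% of all genes higher and 4.89% lower. Fcer2a, which encodes CD23, had 3.60 CPM in the AIE COF library and 1.49 CPM in the PBS library (1.27), and Cr2, which encodes CD21, 3.79 and 1.92 CPM (0.98). Bcl2a1b and Mcl1, survival genes of the Bcl2 family, had 164 and 163 CPM in the AIE COF library and 90.3 and 97.1 CPM in the PBS library (0.86 and 0.74). Bcl2a1b has near-identical copies, and its counts are uncertain for that reason. Bcl2a1d, one of them, had 0 UMIs in both libraries and lies inside the annotated Gm10634. Inside B-like cells 0 of the 5 measured genes of this list were at least 1.5-fold lower, where 4.33% of all genes there were, and 0 were higher; with at least 10 UMIs, 1 of 6 was lower, the survival kinase gene Pim2 (22 AIE COF and 14 PBS UMIs). Fcer2a had 186 CPM in B-like cells of the AIE COF library and 251 CPM in those of the PBS library, a ratio of 0.741 (0.605 to 0.911), and Cr2 189 and 242 CPM, a ratio of 0.781 (0.636 to 0.962). At the PBS make-up Fcer2a was at a log2 ratio of 0.16, Cr2 at -0.09, Bcl2a1b at 0.08, Mcl1 at 0.31 and Tnfrsf13b at -0.09. Nfkb1 was at 0.48 and Btla at 0.41. Of the 3 genes called higher in the lymphotoxin beta receptor list, Cxcl13 was at 0.85, Cxcl12 at 0.32 and Tnfsf11 at 0.01, so 1 of the 3 was still past 1.5-fold. These 3 were taken because they had passed 1.5-fold in the whole library. The share of all genes past 1.5-fold at the PBS make-up was not counted, so that 1 gene cannot be judged against it.

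**Figure D5:**
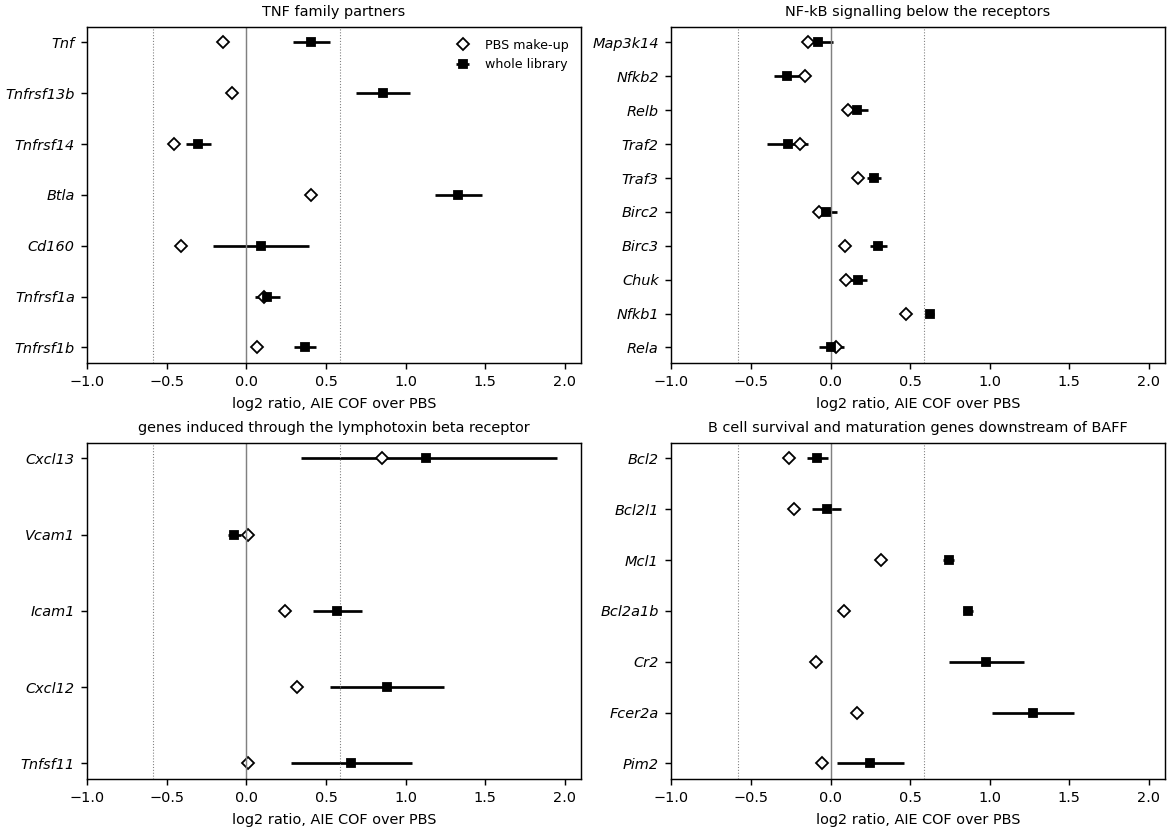
Log2 ratio of AIE COF over PBS for the measured genes of 4 pathway lists, in the whole library (squares, with 95% counting intervals) and at the PBS make-up (open diamonds), with dotted lines at 1.5-fold. Fcer2a lies at 1.27 in the whole library and 0.16 at the PBS make-up, and Nfkb1 at 0.63 and 0.48.

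Genes with the most similar distribution were named by Pearson's r of log2(CPM + 1) over 25 points, each 1 cell class in 1 library, among 11519 genes. The points share libraries and depth, so r is a description. Tnfrsf13c was most like Siglecg (r = 0.913) and Vpreb3 (0.904), both known from B cells. Tnfsf13b was most like Il18 (0.948), Tbxas1 (0.942) and Ppfia4 (0.930), Ltb most like Scml4 (0.952), Eif3f (0.935) and Rnf138 (0.933), and Tnfsf14 most like Cd160 (0.874), Crtam (0.845) and Atp8b4 (0.804). Lta was most like Gtpbp1 (0.889), Rnf167 (0.871) and Vps37b (0.864), and Ltbr most like Mfsd11 (0.916), Ralb (0.914) and Cmtm3 (0.905).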

How the data were processed

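STAR and mm10 are named in the submitters' processing notes, with no version; no source here names the counting program or annotation. The authors deposited unnormalized counts of UMIs, whole numbers for each gene and barcode, with at least 500 UMIs per barcode. The AIE COF library held 10002 barcodes with 115576457 UMIs and the PBS library 8962 barcodes with 145045294 UMIs, and 39 barcode sequences occur in both. Barcodes with at least 200 genes and at most 20% mitochondrial UMIs were kept. The highest Scrublet scores (0.8% per 1000 barcodes; scanpy 1.11.5) were removed as doublets, 694 AIE COF and 569 PBS barcodes. Both libraries were clustered together (2000 variable genes without the 6 members, 30 components, 15 neighbours, Leiden resolution 1.0), T-like and NK-like cells again at 1.0 and B-like cells at 0.6. Naming needed 3 or more markers of a type, and over 50% of them, at 25% or more of their top level over clusters and seen in at least 5% of cells; a cluster stayed unnamed if shallow and not led by its own markers. Ptprc-low clusters had under 100 CPM of Ptprc, and those with a median under 10000 UMIs form a separate shallow class.

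UMIs were summed per library and class and given as CPM with exact Poisson intervals. Ratios have exact conditional binomial intervals and shares exact Clopper-Pearson intervals, all at 95%. The ratio intervals were tried on simulated Poisson counts, the model they assume. That trial does not cover UMIs that share a cell or differences between animals. Intervals of CPM and of their ratios take each UMI as separate, and can be too narrow where 1 cell holds several. The most Ltb UMIs in 1 B-like cell were 4 in the AIE COF library and 10 in the PBS library. For Lta, 1 PBS dendritic-like cell held 5 UMIs, and 1 AIE COF NK-like cell held 5 of the 7 in its class. Levels are compared in classes of at least 100 cells per library. Smaller ones give UMIs, with CPM added in the text only for Ltbr in endothelial-like cells, and sub-clusters are described at any size. A gene counts as measured at 50 UMIs, and a share of 0 allows up to 3 counts. edgeR 4.0.16 gave only scaling factors (TMM) for 1 alternative. In each list, up to 4 genes with the largest absolute log2 ratio are named, and any at 0 in both libraries; Tnfsf8, Pim2, Madcam1, Glycam1 and the leading genes of sub-clusters are named outside that rule, after their values were seen. Alike genes needed 200 UMIs, and 1 of them is not reported here. Members, lists and the naming rule were chosen with earlier results of these data known. Alternatives covered doublets, filters, scaling, weighting, thinning, make-up and clustering. 4 further alternatives were chosen after seeing the data.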

Additional observations from a re-analysis of the deposited data

Results flagged for a closer look

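Among the barcodes removed as doublets, which enter no comparison, 4 of the genes were higher in the AIE COF library, with intervals above 1. Ltb had 81 UMIs in 694 AIE COF barcodes and 59 UMIs in 569 PBS barcodes, a log2 ratio of 1.01. Tnfsf14 had 12 UMIs in the AIE COF barcodes and 5 in the PBS barcodes, a log2 ratio of 1.81. Tnfsf13b had 106 UMIs in the AIE COF barcodes and 89 in the PBS barcodes, a log2 ratio of 0.80. Tnfrsf13c had 22 UMIs in the AIE COF barcodes and 4 in the PBS barcodes, a log2 ratio of 3.01. These barcodes can hold more than 1 cell, and what they hold was not tested. The share of all genes that were higher in them was not counted, so the number of members higher cannot be judged.

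The ratio of Lta had opposite directions in CD8-effector-like cells (17 AIE COF and 15 PBS UMIs) and naive-like T cells (10 AIE COF and 13 PBS UMIs), a difference of 3.24 on the log2 scale. That difference was not tested, since there is 1 library per group, and the naive-like direction turned under 4 of 6 alternatives, among them leaving out the sub-cluster led by Tnfsf8.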

How the results depend on the processing

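No paired analysis was possible because there is 1 library per group and no test. All values here are log2 ratios of AIE COF over PBS unless named otherwise, and the cause of each shift was not tested. Under the alternatives 242 values stayed within their counting interval or, for counts, within 1.5 times, 27 moved further and 10, all past 1.5-fold as reported, changed sign. Counting values near 0 too, 38 log2 ratios had the other sign under an alternative.

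In the whole library, equal class weight gave -0.13 for Lta, -0.46 for Ltb, -0.093 for Tnfsf13b, -0.33 for Ltbr and -0.073 for Tnfrsf13c. The PBS make-up gave 0.15 for Lta, -0.29 for Ltb, 0.31 for Tnfsf14, -0.14 for Tnfsf13b and -0.00015 for Tnfrsf13c. Thinning to 1000 UMIs gave 0.043 for Tnfsf14, -0.16 for Tnfsf13b and -0.36 for Ltbr, and equal cell weight -0.030 for Tnfsf13b and -0.45 for Ltbr.

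Within classes, Ltb in B-like cells stayed below 0 under all 10 alternatives (-0.64 to -0.40) and in T-like cells too, with -0.46 at resolution 0.6 and -0.43 with equal cell weight. Ltb in Ptprc-low cells was -1.97 with equal cell weight and -0.83 thinned. Tnfsf13b in monocyte-like cells was 0.69 with stricter filters and 0.95 with separate clustering of the libraries, in macrophage-like cells -0.65 thinned, in Ptprc-low cells 0.58 thinned and in the unnamed clusters -0.74 with separate clustering. Ltbr in shallow Ptprc-low cells was 0.60 with separate clustering. Lta in naive-like T cells was 1.78 with stricter filters, 2.41 with separate clustering, 0.93 at resolution 0.6 and 0.90 without the sub-cluster led by Tnfsf8; in CD8-effector-like cells it stayed between 1.07 and 1.44 under 6 alternatives. No cluster was named dendritic-like in both libraries without doublet removal or with separate clustering, so those values were not had. Without doublet removal, a cluster of 187 AIE COF and 163 PBS cells met 9 markers of conventional dendritic cells but stayed unnamed by the naming rule.

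For log2 ratios of shares of cells, the unthinned values were -0.63 for Ltb and -0.48 for Lta in T-like cells, and thinning to 2000 UMIs gave -0.94 for Tnfrsf13c in B-like cells. The log2 ratio of the Ltbr share in macrophage-like cells was -0.098 as reported and 0.44 to 0.77 under 3 alternatives. With at least 10 UMIs, and with no minimum, 1 gene induced through the lymphotoxin beta receptor, Glycam1, was at least 1.5-fold lower. The share of all genes at least 1.5-fold higher was 17.5% with no minimum, and lower 9.0% at 10 UMIs and 13.3% with none.

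Depth limits Lta and Tnfsf14 most, at 46 to 72 UMIs per library.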

Other observations

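Tnf lies between Ltb and Lta on mouse chromosome 17 (chr17:35199381-35202007), but its transcripts were mostly in macrophage-like and monocyte-like cells. Macrophage-like cells had 676 of its 1306 UMIs in the AIE COF library and 654 of 1215 in the PBS library, at 79.2 CPM and 108 CPM, a ratio of 0.733 (0.657 to 0.817). Monocyte-like cells had 291 UMIs in the AIE COF library and 196 in the PBS library. T-like cells, the main carriers of Ltb, had 79 Tnf UMIs in the AIE COF library and 40 in the PBS library (25.7 and 17.6 CPM), and B-like cells had 3 Tnf UMIs in the AIE COF library and 3 in the PBS library. Tnfrsf14, the gene of HVEM and the other receptor of LIGHT, had 41.0 CPM in macrophage-like cells of the AIE COF library and 67.1 CPM in those of the PBS library, a ratio of 0.611 (0.528 to 0.707), where 6.27% of genes were at least 1.5-fold lower. These genes were chosen after their values were seen.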
